A study of Mus musculus with 6 samples.

Results

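The genes described here are the ligands of the fibroblast growth factor (FGF) and platelet-derived growth factor (PDGF) families, the FGF receptors and the FGF-binding proteins. They were chosen by gene symbol, as every Fgf, Fgfr, Fgfbp and Pdgf ligand gene with a protein-coding transcript, which gave 33 genes with 122 protein-coding transcripts out of 54309 genes and 140789 transcripts quantified. Left sciatic nerves of C57BL/6 mice aged 6 to 8 weeks were collected 24 h after a sham operation, in which the nerve was exposed at the thigh but not cut. Each library was made from the nerves of 2 mice, with 3 pools of females (F1, F2 and F3) and 3 pools of males (M1, M2 and M3). There was no unoperated nerve among these samples, so all 6 pools share the surgery and the wound. The pools held 55949876 to 78473057 estimated read pairs. Levels are TPM, a unit scaled for transcript length and for the total of a library. TPM of the 33 genes was summed over their protein-coding transcripts, and TPM of marker and pathway genes over all their transcripts. In whole nerve, fewer cells of a type and less RNA per cell cannot be told apart.

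FGFs signal through receptor tyrosine kinases, FGFR1 to FGFR4, whose extracellular part is built of immunoglobulin (Ig) domains, and heparan sulfate on the cell surface is part of the active complex. Most FGFs are paracrine factors that are released and held near the cell; the endocrine FGFs circulate and need a Klotho co-receptor, and the FGF11 to FGF14 group stays inside the cell and binds ion channels. PDGFs are dimers that bind PDGFRα and PDGFRβ, and in peripheral nerve they are known as mitogens of Schwann cells and fibroblasts. The part of Ig domain III nearest the membrane is encoded by 1 of a pair of exons, IIIb or IIIc, and that choice sets which FGFs a receptor binds: FGF7 and FGF10 act mainly through the IIIb form of FGFR2, FGF2 acts mainly through IIIc forms, and FGF1 binds both.

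The IIIb and IIIc exons of Fgfr3 are shown because receptor transcripts were classed by the exon of this pair that they carry. Fgfr3 is the receptor whose share of the pair varied most. The class levels are sums of the authors' transcript estimates, and reads on the exons themselves were not counted. They were read 5′ to 3′ on the coding strand of GRCm39, and capitals mark the longest run of bases that both exons share.
Fgfr3 IIIb (chr5:33888625-33888775, plus strand): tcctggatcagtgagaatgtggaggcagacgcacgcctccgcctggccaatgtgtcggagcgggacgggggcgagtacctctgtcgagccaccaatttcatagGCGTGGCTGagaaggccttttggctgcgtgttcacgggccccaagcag
Fgfr3 IIIc (chr5:33889461-33889605, plus strand): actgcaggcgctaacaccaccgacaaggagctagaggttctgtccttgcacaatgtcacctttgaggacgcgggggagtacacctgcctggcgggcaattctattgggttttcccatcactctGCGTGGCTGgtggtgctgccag
Both are coding exons. They were identical at 52.4% of aligned bases, with a longest shared run of 9 bases.

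Of the 33 genes, 22 passed the filter on low counts, which asked for 0.5 or more counts per unit of library size (CPM) in 3 or more pools. The tissue label was checked with cell type markers. All 8 myelinating Schwann cell markers were present, with a sum of 33535 to 42765 TPM per pool, and so were all 7 fibroblast, 4 perineurial, 5 endothelial and 5 macrophage markers. Pool F2 stood apart by its muscle RNA: the 8 fast skeletal muscle markers summed to 2667 TPM there, compared with 12.97 to 174 TPM in the other pools. The 5 erythroid markers summed to 30731 TPM in F3 and 4958 TPM in M3, compared with 8047 to 14092 TPM in the other pools. The 5 white adipocyte markers summed to 538 to 1051 TPM in females and 480 to 520 TPM in males, and the 5 macrophage markers to 922 to 990 TPM in females and 1075 to 1189 TPM in males. No marker of these 4 lists was at 0 on average over the pools.

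Among the paracrine ligands Fgf1, Fgf7 and Fgf2 made up most of the transcripts. Fgf1, the FGF that binds every FGF receptor, was at 98.3, 113 and 109 TPM in F1, F2 and F3 and at 115, 106 and 113 TPM in M1, M2 and M3. It was the highest of the 33 genes, and its range did not overlap that of the next. Fgf7, the keratinocyte growth factor, was at 52.5, 55.0 and 54.2 TPM in the females and 50.3, 53.4 and 52.5 TPM in the males. Its coefficient of variation over the 6 pools, 3.08%, was among the smallest of the members. Fgf2, basic FGF, was at 27.7, 21.9 and 20.7 TPM in the females and 20.5, 20.2 and 18.5 TPM in the males, with F1 above the other 5 pools. Together these genes held 88.1 to 90.0% of the paracrine FGF transcripts of a pool, and Fgf1 alone held 49.2 to 55.3%.

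Fgf4, best known from the early embryo and the limb bud, was next at 11.8, 14.7 and 16.1 TPM in the female pools and 14.3, 13.7 and 13.5 TPM in the male pools. Most of it came from Fgf4-201, a spliced transcript of 3 exons and 3030 bases, at 8.93 to 14.1 TPM per pool. Fgf4 lies between Fgf3 and Fgf15 on chromosome 7 (144401104 to 144418985 of GRCm39, plus strand), and its neighbors were close to undetected: Fgf3 had 8 reads and Fgf15 had 3 reads over all 6 pools, compared with 7381 for Fgf4. No other annotated gene overlaps Fgf4.

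The other paracrine ligands that passed the filter were low. Fgf18, a ligand with roles in skeletal growth, was at 2.54 to 4.24 TPM. X-linked Fgf16, of the same subfamily as Fgf9, was at 1.90 to 2.62 TPM. Fgf10, a ligand of IIIb receptors that is also made in adipose tissue, was at 0.616 to 1.65 TPM and Fgf9, a mitogen first found in glial cells, at 0.621 to 1.25 TPM. Fgf5, a regulator of the hair cycle, varied most among the 22 genes, with a coefficient of variation of 76.3%. It reached 1.22 TPM in F1 and 0.916 TPM in M3 and stayed at 0.167 to 0.455 TPM in the other pools, so the high pools were 1 of each sex.

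Fgf17 with 25 reads over the 6 pools, Fgf22 with 58, Fgf6 with 9 and Fgf3 with 8 did not pass the filter. No read was assigned to Fgf8 or Fgf20, for which a count of 0 allows up to 3 reads in a pool, a limit that covers counting error only. The endocrine ligands were also below the filter. Fgf23, the hormone of phosphate balance, had 113 reads over the 6 pools at 0.106 to 0.417 TPM, Fgf21, the fasting hormone, had 8 reads and Fgf15, the ileal hormone, had 3. Their Klotho co-receptors were low too, with Kl at 0.0899 to 0.243 TPM and Klb at 0.178 to 0.658 TPM.

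Of the intracellular FGFs, Fgf11 was at 5.81, 5.75 and 5.21 TPM in the female pools and 4.80, 4.75 and 4.98 TPM in the male pools. X-linked Fgf13, which modulates sodium channels and microtubules, was at 2.71 TPM in F2 and 0.782 to 1.35 TPM in the other pools. The high value of Fgf13 was in the pool with the muscle RNA described above, and the part of muscle in it was not tested. Fgf12 was at 0.244 to 0.574 TPM, and Fgf14, with 64 reads, did not pass the filter. The FGF-binding proteins, secreted carriers that release FGFs from the matrix, were both detected, Fgfbp3 at 2.07 to 3.71 TPM and Fgfbp1 at 0.911 to 1.84 TPM.

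**Figure D1:**
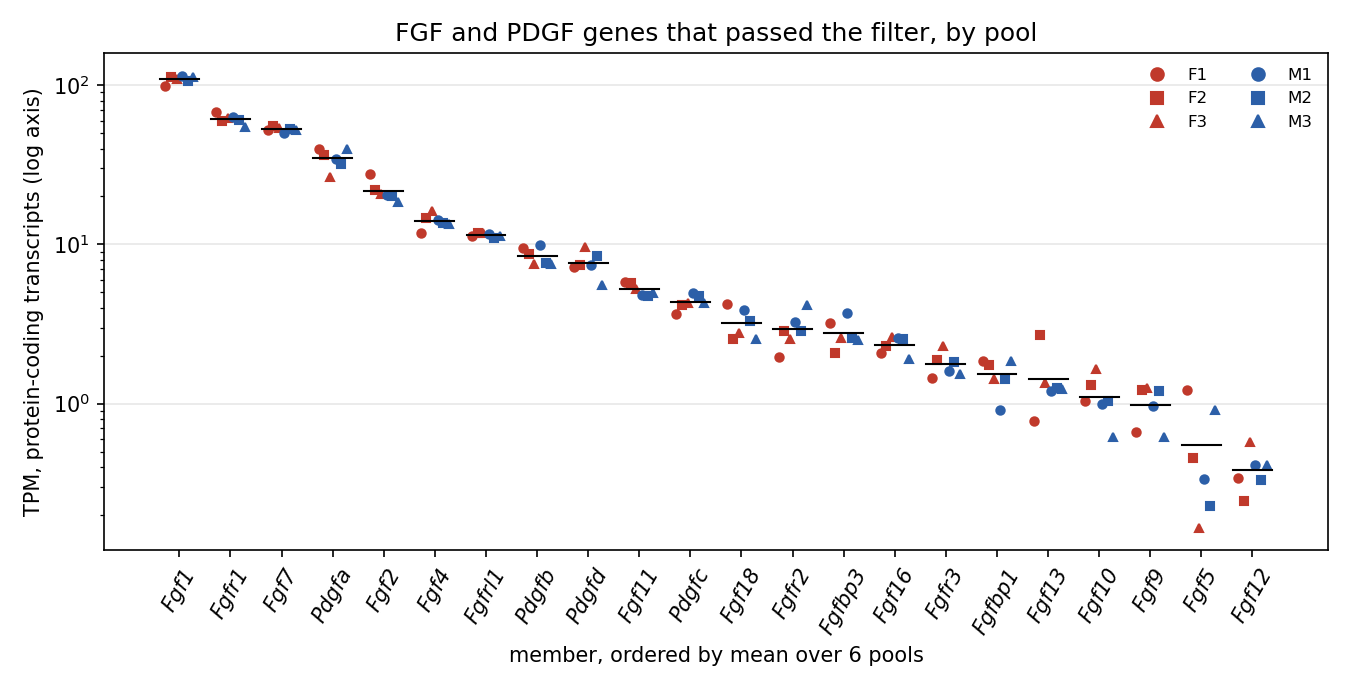
TPM of the protein-coding transcripts of the 22 genes that passed the filter (log axis) in each of 6 pools, with females (F1 to F3) in red, males (M1 to M3) in blue and a black line at the mean of 6 pools; genes are ordered by that mean. Levels run from 109 TPM for Fgf1 to 0.386 TPM for Fgf12, and pools of both sexes lie close together for the highest genes.

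Fgfr1 carried nearly all of the FGF receptor kinase signal. It was at 67.6, 59.5 and 61.8 TPM in F1, F2 and F3 and at 63.3, 60.1 and 54.4 TPM in M1, M2 and M3, and it made up 90.4 to 95.2% of the transcripts of the 4 receptor kinases in a pool. Its range overlapped that of Fgf7, but Fgfr1 was above Fgf7 within every pool, by the least in M3 (54.4 and 52.5 TPM). Fgfr2 was at 1.96, 2.85 and 2.55 TPM in the females and 3.25, 2.86 and 4.15 TPM in the males. Fgfr3 was at 1.45, 1.89 and 2.29 TPM in the females and 1.604, 1.83 and 1.53 TPM in the males. The ranges of Fgfr2 and Fgfr3 overlapped each other, although Fgfr2 was above Fgfr3 within every pool, and both lay far below Fgfr1. Fgfr4 did not pass the filter, at 0.0230 to 0.0951 TPM with 56 reads over 6 pools. Fgfrl1, a receptor that binds FGFs but has no kinase domain, was at 11.3, 11.8 and 11.7 TPM in the females and 11.6, 10.96 and 11.4 TPM in the males. It stood above Fgfr2 and Fgfr3 in every pool, and its coefficient of variation of 2.68% was the smallest of the 22 genes.

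Among receptor transcripts that carry exon IIIb or IIIc, most were of the IIIc form. In Fgfr1, IIIc transcripts were at 62.0, 57.0 and 58.9 TPM in the female pools and 60.5, 55.1 and 51.5 TPM in the male pools, and the IIIb transcript at 2.52, 2.07 and 2.29 TPM and 1.498, 2.16 and 2.34 TPM. The IIIc share of IIIb plus IIIc was 95.7 to 97.6%. In Fgfr2 the IIIc share was 79.9 to 88.9%, with IIIc at 1.01 to 2.03 TPM and IIIb at 0.129 to 0.422 TPM. Fgfr2 transcripts with neither exon, left out of this share, were at 0.697 to 1.70 TPM. In F3 alone they exceeded IIIc, at 1.40 and 1.02 TPM. In Fgfr3 the IIIc share was 87.1, 78.7 and 72.2% in the females and 62.5, 68.7 and 67.9% in the males. The order of the mean IIIc share was thus Fgfr1, Fgfr2 and Fgfr3, while the ranges of Fgfr2 and Fgfr3 overlapped. The IIIb transcripts of the 3 receptors summed to 2.32 to 3.26 TPM and the IIIc transcripts to 54.6 to 64.3 TPM. Fgfr1 supplied most of this IIIb sum, while the IIIb form of Fgfr2, the main receptor of FGF7, was its smallest part on average, at a mean of 0.265 TPM.

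**Figure D2:**
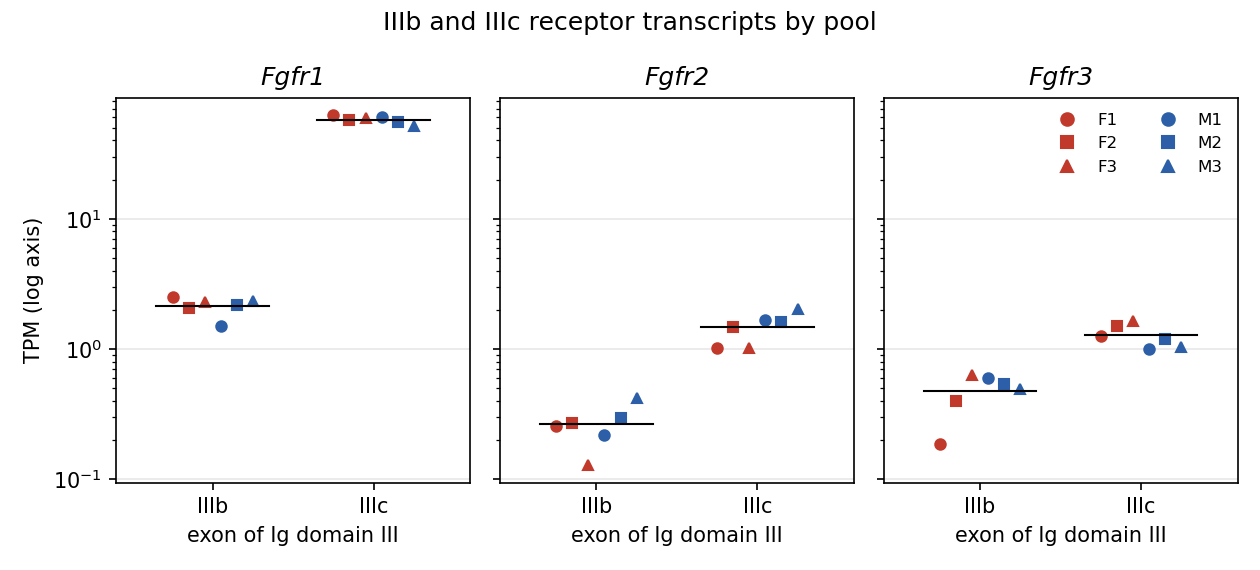
TPM of the transcripts that carry exon IIIb or exon IIIc of Fgfr1, Fgfr2 and Fgfr3 (log axis) in each pool, red for females and blue for males, with a black line at the mean of 6 pools. IIIc lies above IIIb for all 3 receptors in every pool, by the widest margin for Fgfr1 (means of 57.5 and 2.15 TPM).

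Fgfr1 was also split by the exon of Ig domain I, whose absence gives the receptor with 2 Ig domains. Transcripts with that exon held 49.7 to 53.4% of the classed Fgfr1 transcripts, at 27.1 to 33.1 TPM, so that both forms were near equal in every pool. The main transcripts were Fgfr1-203, without the exon, with a mean share of 44.2%, and Fgfr1-202 and Fgfr1-201, with it, at 35.3% and 14.6%. Their shares moved little among pools, from 42.7 to 45.0% for Fgfr1-203.

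In Fgfr2 a mean of 41.0% of the TPM was assigned to Fgfr2-217, which has 546 coding bases and neither exon of Ig domain III. The IIIc transcripts Fgfr2-207 and Fgfr2-215 held 34.0% and 15.9% and the IIIb transcript Fgfr2-208 held 8.11%. These shares varied widely, Fgfr2-207 from 15.7 to 51.5% and Fgfr2-215 from 0 to 24.4%. The transcripts of Fgfr3 were less settled still: Fgfr3-201 went from 0 in F2, F3 and M3 to 54.7% in F1, Fgfr3-209 from 4.53 to 55.0% and Fgfr3-210 from 0 to 51.9%, although all 3 carry IIIc. Fgfr3-211 and Fgfr3-203, both IIIb, went from 0 to 32.1% and from 0 to 37.5%, and Fgfr3-215, IIIc, from 0 to 28.6%. The sum over a class was steadier than its transcripts, and single Fgfr3 transcripts are given as the authors' estimates from 1803 reads over the 6 pools. Fgfrl1 was mainly Fgfrl1-201, with 63.0 to 83.1%, and Fgfrl1-202, with 14.5 to 33.5%.

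All 4 PDGF ligand genes passed the filter, and Pdgfa led. Pdgfa, the A chain, was at 40.0, 36.3 and 26.7 TPM in F1, F2 and F3 and at 34.4, 32.0 and 39.6 TPM in M1, M2 and M3. It held 55.4 to 69.5% of the PDGF ligand transcripts, and its highest pools, F1 and M3, were 1 of each sex. Pdgfb, the B chain, was at 7.53 to 9.85 TPM, with 97.5% of its coding TPM on average in Pdgfb-201. Pdgfd, a ligand that is secreted latent and cut by proteases, was at 5.52 to 9.64 TPM, lowest in M3 and highest in F3. It was split between Pdgfd-201 (43.8 to 52.5%), Pdgfd-203 (39.0 to 49.6%) and Pdgfd-202 (0 to 10.5%). Pdgfc, the other latent ligand, was at 3.67 to 4.97 TPM. The ranges of Pdgfb and Pdgfd overlapped, as did those of Pdgfa and Fgf2. Within every pool Pdgfa was above Fgf2, while the order of Pdgfb and Pdgfd differed among pools.

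Of the receptors of these ligands, Pdgfra was at 111, 99.6 and 109 TPM in the females and 102, 104 and 78.6 TPM in the males, which was 1.98 to 4.10 times Pdgfa in the same pool. Pdgfrb was at 35.4 to 43.2 TPM, or 0.892 to 1.46 times Pdgfa, and was below Pdgfa in M3. Pdgfra exceeded Pdgfrb 2.22 to 2.82 times. The receptor levels were summed over all transcripts and Pdgfa over coding transcripts alone, so the ratios to Pdgfa compare unlike measures. Over all transcripts Pdgfa had a mean of 36.9 TPM, compared with 34.8 TPM over coding transcripts. The Pdgfrb ratio was 1.01 in F1, so the order of the pair there was not resolved.

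The A chain comes in a short form and a long form, which ends in a stretch of basic residues that holds the protein on heparan sulfate. The coding exon that makes the long form is shown 5′ to 3′ on the coding strand of GRCm39, with the in-frame lysine and arginine codons in capitals.
Pdgfa long-form exon (chr5:138964393-138964445, minus strand): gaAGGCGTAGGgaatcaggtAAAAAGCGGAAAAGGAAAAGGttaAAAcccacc
Of the 17 whole codons in this exon, 11 encode lysine or arginine. Its transcript, Pdgfa-201, was rare: it held 3.00, 2.14 and 1.13% of Pdgfa in the female pools and 0.396, 0.816 and 0.388% in the male pools, from 158 reads in all. The short forms Pdgfa-202 and Pdgfa-204 held 49.3 to 63.1% and 33.6 to 50.1%.

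Transcripts that are not annotated as coding held part of the reads of some members. For Pdgfc the share of reads on coding transcripts was 56.1%, and the other 43.9% lay on transcripts annotated as targets of nonsense-mediated decay. By TPM these were nearly all Pdgfc-202. Coding Pdgfc-201 was at 3.67, 4.14 and 4.26 TPM in the females and 4.97, 4.72 and 4.30 TPM in the males, and Pdgfc-202 at 4.18, 4.03 and 5.11 TPM and 3.46, 2.95 and 4.07 TPM. The coding form thus made up 46.7, 50.7 and 45.5% of the pair in the female pools and 59.0, 61.6 and 51.4% in the male pools, which do not overlap. This share was singled out after its values were seen and has no test. Retained introns held 17.2% of the Fgfr3 reads and 14.9% of the Fgfr1 reads.

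The comparison of the sexes asked whether these genes differ between female and male nerves without axotomy. None of the 22 members was called by edgeR's quasi-likelihood test at an adjusted p of 0.1, and 1 had an unadjusted p under 0.05. DESeq2 also called 0. Over all 16310 genes tested edgeR called 10, or 0.0613%, and 6.11% had an unadjusted p under 0.05, so that 1 of 22 is near the background. On the log2 scale the median female-over-male difference of the members was 0.06, with 17 positive and 5 negative. For all genes tested it was 0.0016, with 8248 positive and 8062 negative. The signs of 14 members changed when 1 pool was left out. Adjusted p-values of the members lay between 0.657 and 0.9995 in edgeR.

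The member with the smallest p was Fgfr2. Its normalized CPM was 5.85, 5.72 and 4.87 in F1, F2 and F3 and 6.50, 7.15 and 8.61 in M1, M2 and M3, so that every male pool was above every female pool. Its female-over-male log2 fold change was -0.44 with a standard error of 0.14, and edgeR's adjusted p over all genes was 0.657. The summed macrophage markers were also higher in every male pool and the summed adipocyte markers in every female pool, as given above. Single markers did not all follow the sums: Mrc1 was at 115 to 147 TPM in females and 88.2 to 143 TPM in males, and Adipoq at 51.5 to 92.5 and 33.0 to 54.7 TPM. Their part in this difference was not tested. Female and male pools did not overlap for 3 of 22 members, compared with 11.2% of all genes tested.

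The others without overlap were Fgf11 and Fgfrl1, both with the female pools higher. Fgf11 was at a normalized CPM of 10.4, 10.1 and 9.43 in the females and 8.44, 8.35 and 9.25 in the males (log2 fold change of 0.20, standard error 0.09, edgeR adjusted p = 0.821). Fgfrl1 was at 17.2, 17.4 and 17.1 and at 16.1, 15.3 and 17.1, with F3 at 17.11 and M3 at 17.08 (log2 fold change of 0.09, edgeR adjusted p = 0.874). Fgfr1 was at 216, 192 and 203 in the females and 192, 182 and 172 in the males, with F2 just below M1 (log2 fold change of 0.16, standard error 0.07, edgeR adjusted p = 0.822). The signs of Fgfr1 and Fgfr2 were opposite, and neither was called.

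Fgf10 had the largest absolute log2 fold change, 0.55 with a standard error of 0.27 (edgeR adjusted p = 0.831). Its normalized CPM was 1.92, 2.35 and 3.32 in F1, F2 and F3 and 1.91, 2.09 and 1.18 in M1, M2 and M3. The groups overlapped, F3 was highest and M3 lowest. The 5 adipocyte markers summed to 538, 752 and 1051 TPM in F1, F2 and F3 and to 483, 520 and 480 TPM in the male pools. The 5 erythroid markers were also highest in F3 and lowest in M3, as given above. The part of either in Fgf10 was not tested. Without F3 the log2 fold change of Fgf10 was 0.30, and without M3 it was 0.34. Fgf5, at 0.35 with a standard error of 0.62, rested on F1: without that pool it was -0.39. Fgf13 was at 0.18, and at -0.19 without F2, the pool with muscle RNA. Fgf1, Fgf7, Pdgfa and Pdgfb had log2 fold changes of -0.10, -0.03, 0.03 and 0.11, with standard errors of 0.09, 0.07, 0.17 and 0.13; the sign of Fgf7 and Pdgfa flipped when effective length was used as an offset.

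**Figure D3:**
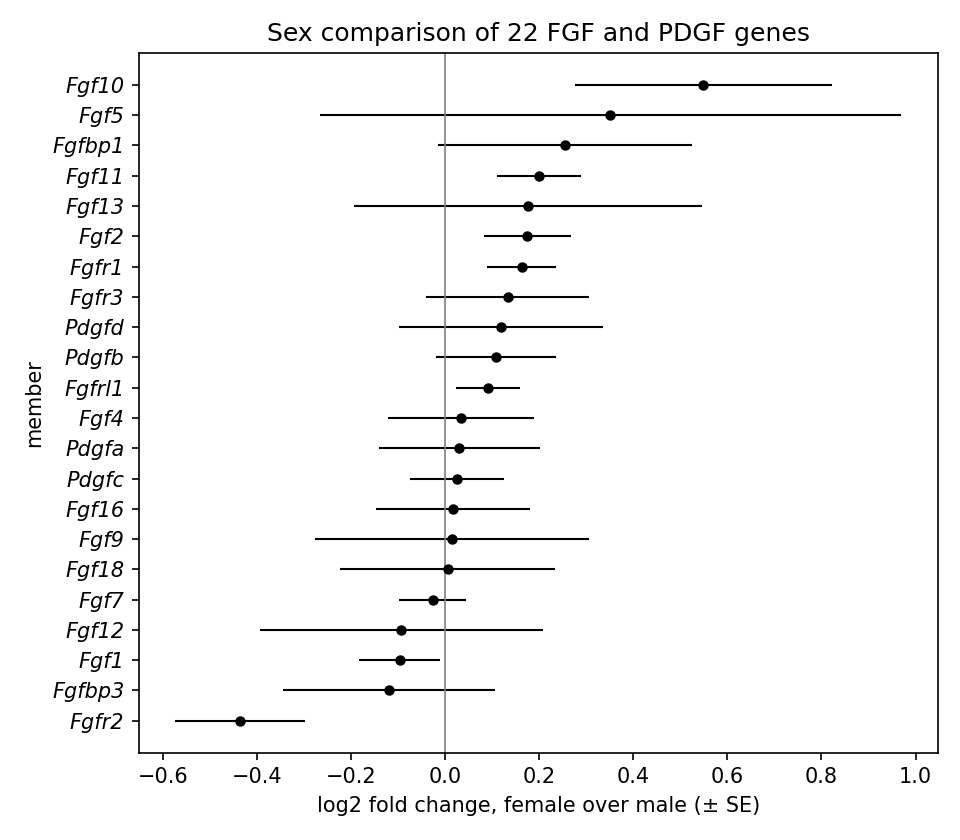
Female-over-male log2 fold change from edgeR for the 22 members that passed the filter, with bars of 1 standard error (3 pools per sex). Fgfr2 lies lowest at -0.44 and Fgf10 highest at 0.55, and no member passed the adjusted threshold.

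Splice shares were compared between the sexes by an exact permutation test, which with 3 pools against 3 cannot give a p under 0.1. That p is given by pools that do not overlap, and no adjusted p can then pass the threshold of 0.1. Of 27 shares tested, 21 of transcripts and 6 of exon classes, 4 and 2 reached p = 0.1 in the exact test, and the lowest adjusted p was 0.45. Over all genes tested with more than 1 coding transcript, the pools did not overlap for 9.29% of transcript shares. The 6 are not independent, since those of Pdgfa share a denominator and Fgfr3-215 is part of the Fgfr3 IIIc share. The Fgfr3 IIIc share was 79.4 ± 7.49% in females and 66.4 ± 3.36% in males (SD, n = 3 pools each), a difference of 12.996 percentage points (exact permutation test, two-sided, p = 0.1, adjusted p = 0.45). The long form of Pdgfa was at 2.09 ± 0.938% and 0.534 ± 0.245% (exact permutation test, two-sided, p = 0.1, adjusted p = 0.45). The others at this p were Pdgfa-202 and Fgfr3-215, with the higher shares in females, Pdgfa-204, with the higher share in males, and Pdgfd-203, higher in females. For the IIIc shares of Fgfr1 and Fgfr2 the sexes overlapped, with female minus male differences of -0.20 and -0.84 percentage points (exact permutation test, p = 0.9 for each).

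**Figure D4:**
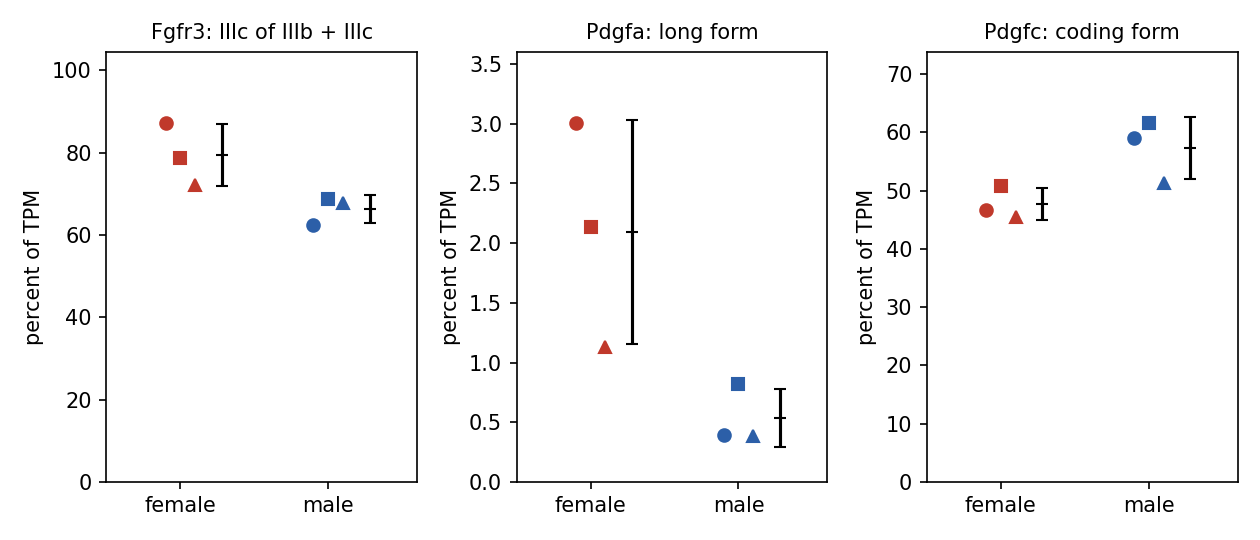
Percent of TPM in each pool for the IIIc exon form of Fgfr3, the long form of Pdgfa and the coding form of Pdgfc (of Pdgfc-201 plus Pdgfc-202), red for females and blue for males, and black bars for the mean ± SD (3 pools); each vertical axis starts at 0 and has its own scale. In all 3 panels the female and male pools do not overlap, and for Pdgfc the nearest pools are F2 at 50.7% and M3 at 51.4%. The IIIc and Ig domain I shares of Fgfr1 and Fgfr2 did overlap and are not drawn. For Fgfr3 and Pdgfa the adjusted p was 0.45 (exact permutation test). The Pdgfc share was singled out after its values were seen and has no test. Over all genes, 9.29% of transcript shares did not overlap between the sexes.

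The rest of the pathway was present and was not called different between the sexes either. Of 65 genes listed, 60 passed the filter; edgeR and DESeq2 each called 0, edgeR gave an unadjusted p under 0.05 to 0 of them, and the median log2 fold change was 0.05. The gene with the smallest p was Ndst3, a heparan sulfate N-sulfating enzyme of low level (log2 fold change of 0.44, standard error 0.19, edgeR adjusted p = 0.814), whose sign flipped to -0.63 when only coding transcripts were counted.

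Among the heparan sulfate carriers, of which 9 of 10 passed the filter, the glypican Gpc3 was at 317 to 363 TPM and the syndecan Sdc3 at 171 to 218 TPM. Of the 13 genes that build and trim the sulfate pattern, 11 passed, led by the N-sulfating enzyme Ndst1 at 64.0 to 101 TPM and the extracellular sulfatase Sulf2 at 51.4 to 60.2 TPM. The membrane proteins Flrt2 and Flrt3, which bind FGF receptors, were at 29.4 to 41.7 TPM and 5.50 to 7.57 TPM. All 11 adaptor genes passed, the highest being Crk at 87.2 to 96.5 TPM and Grb2, which links receptors to Ras, at 66.8 to 96.9 TPM. Of the proteases that cut PDGF precursors, all 7 passed, with Plat, the tissue plasminogen activator that activates PDGF-CC, at 65.7 to 82.4 TPM and Plau, urokinase, which activates PDGF-DD, at 62.4 to 82.2 TPM.

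Pool F1 stood apart in the genes listed as feedback inhibitors and transcriptional targets of these receptors. Of the feedback inhibitors 9 passed the filter; Spred1, which blocks Ras activation, was at 66.0, 49.2 and 45.5 TPM in the female pools and 52.8, 47.5 and 44.7 TPM in the male pools. Dusp6, the ERK phosphatase, was at 58.7, 46.5 and 44.1 TPM and 42.8, 46.1 and 54.4 TPM. Of the targets all 7 passed, among them the immediate early gene Ier2, at 31.2, 27.3 and 22.7 TPM and 25.8, 23.2 and 32.0 TPM, and the transcription factor Myc, at 36.4, 22.9 and 19.7 TPM and 20.1, 18.4 and 22.3 TPM. In normalized CPM, F1 was the highest of the 6 pools for 7 of 9 feedback inhibitors and 6 of 7 targets, compared with 21.7% of all genes tested. M3 was the lowest pool for 6 of the 9 feedback inhibitors, compared with 23.1% of all genes tested. Of the 22 members, F3 was highest for 9 and F1 for 7, where the shares over all genes were 16.3% and 21.7%, and F1 was lowest for 8, where that share was 20.3%. Those genes are not independent of each other, and this count over pools has no test.

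The members varied among pools in more than 1 way. In normalized CPM, Fgf5 was at 1.15 in F1 and 0.211 in F3, Pdgfa at 38.7 and 25.3, and Fgf2 at 66.9 and 55.1, so F1 was above F3. Fgf4, at 14.9 in F1 and 23.7 in F3, Fgfr3, at 4.50 and 7.33, and Fgf9, at 0.753 and 1.49, had the reverse order. M3 was on the side of F1 for Fgf5 (0.795), Pdgfa (38.02) and Fgf9 (0.813), but was the lowest pool for Fgf2 (48.7) and near the other males for Fgf4 (20.2) and Fgfr3 (5.48). The myelinating Schwann cell markers summed to 33535 TPM in F1, the lowest of the pools, and 42765 TPM in M3, the highest, and their part in these levels was not tested.

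**Figure D5:**
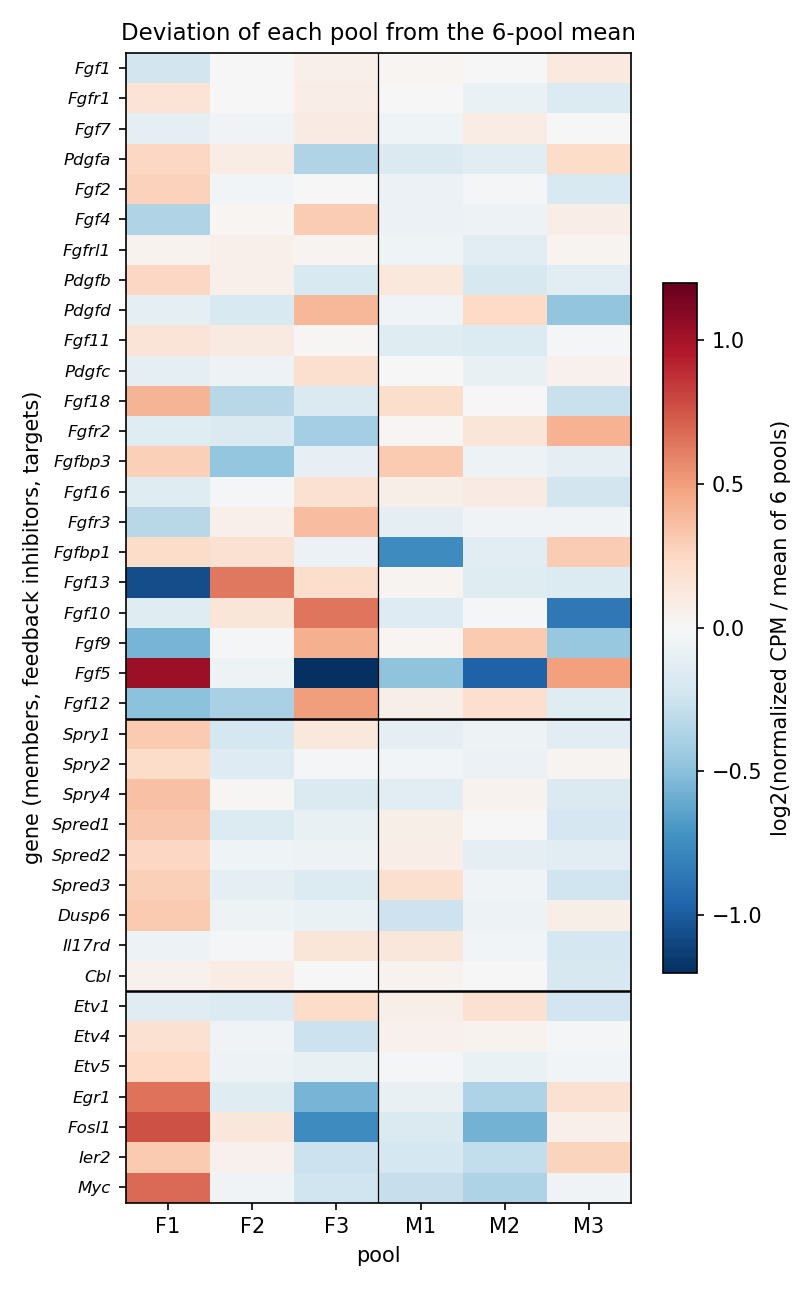
Log2 ratio of the normalized CPM in each pool to the mean of 6 pools for the 22 members (top block, in order of mean TPM), 9 feedback inhibitors (middle) and 7 transcriptional targets (bottom); red is above and blue below the mean, and the vertical line parts females from males. F1 is red for nearly all feedback inhibitors and targets, and Fgf5 shows the widest range, from 1.15 CPM in F1 to 0.211 CPM in F3.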

How the data were processed

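The authors made stranded poly-A libraries, trimmed paired reads (Trimmomatic 0.39, per the submitters' processing notes) and estimated transcript levels with Salmon (1.5.2 in the same notes). For each transcript the authors deposited an estimated count and a TPM; Salmon divides by effective length, and TPM is not corrected for composition between samples. Here estimated counts were summed by gene over all transcripts and rounded. For members TPM was summed over protein-coding transcripts, the annotated type in the files, and for marker and pathway genes over all transcripts. Females were compared with males by edgeR 4.0.16 (R 4.3.3; TMM, robust quasi-likelihood fit, no covariate, Benjamini-Hochberg adjustment, threshold 0.1) on 16310 genes, those reaching 0.5 CPM in 3 or more pools. Transcripts were classed by their coding exons in GENCODE on GRCm39. Transcripts without such an exon, or absent from the release used for classing, were left out of the shares of exon classes. The absent ones were Fgfr1-214 and Fgfr1-215, with 724 reads over the 6 pools. Shares of single transcripts were taken of all coding transcripts of the gene. Shares were compared by exact permutation (SciPy 1.17.1) with adjustment over 27 shares. Alternatives included DESeq2 1.42.0. The members, gene lists and alternatives were chosen with earlier results of these data known. All members are named; of each pathway list the text names the 2 genes with the highest mean TPM and any called gene, plus the smallest p; Klb and Kl go beyond this and were chosen after their values were seen. The edgeR step alone was tested on simulated counts. Some exon sequences are not reported here.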

Additional observations from a re-analysis of the deposited data

How the results depend on the processing

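No alternative called a member or a pathway gene. For splice shares no setting could make a call, since the smallest exact p of 3 pools against 3 is 0.1. Over all genes the count of 10 became 49 with no filter on low counts, 159 in DESeq2 and 5 with the replicate number as a block, and 4 to 10 with 1 pool left out (4 without F1 and 5 without M1). Same-numbered pools did not deviate together (correlations of -0.18, -0.13 and -0.10 for numbers 1, 2 and 3). For female and male pools of unlike number the correlations ran from -0.067 to 0.20. Whether any pools shared their handling was not tested. With the replicate block 0 of 22 members and 0 of 60 pathway genes were called. The filter kept 20 to 22 members under the other detection rules. The 8 genes Fgfr2, Fgf11, Fgfr1, Fgf10, Fgf2, Fgfrl1, Fgf1 and Fgfbp1 kept their sign in every fit run. The 11 members below the filter had 0 to 113 reads each, and with no filter 31 members were tested and 0 were called. The log2 fold changes of 14 members, none of them called, changed sign when 1 pool was left out, and their ranges then follow. Pdgfb ran from -0.0011 to 0.21, Fgfr3 from -0.053 to 0.29, Fgf5 from -0.39 to 0.84, Pdgfd from -0.088 to 0.30 and Fgfbp3 from -0.33 to 0.046. Fgf13 ran from -0.19 to 0.52, Fgf7 from -0.087 to 0.016, Fgf12 from -0.49 to 0.078, Pdgfc from -0.077 to 0.083 and Fgf4 from -0.14 to 0.19. Pdgfa ran from -0.10 to 0.19, Fgf16 from -0.079 to 0.089, Fgf9 from -0.26 to 0.23 and Fgf18 from -0.25 to 0.15. With effective length as an offset the sign changed to -0.13 for Fgfr3, 0.046 for Fgf7, 0.020 for Fgf12, -0.077 for Pdgfa, -0.0019 for Fgf16 and -0.031 for Fgf18. With coding transcripts alone the sign changed to -0.21 for Pdgfc and -0.63 for Ndst3. With the replicate block the sign changed to -0.012 for Fgf9 and -0.0098 for Fgf18. With 1 pool left out, the female minus male difference ran from -0.62 to 0.35 percentage points for the IIIc share of Fgfr1, -3.06 to 1.44 percentage points for the IIIc share of Fgfr2 and -11.86 to 15.14 percentage points for the share of Fgfr2 with the exon of Ig domain I.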
